A study of Rattus norvegicus with 38 samples.

Results

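The genes described here handle cholesterol efflux and lipid storage in lung cells, where macrophages take up and clear surfactant lipid. They are Nr1h3, Abca1, Abcg1, Apoe, Soat1, Plin2, Fabp4, Fabp5 and Lpl, 9 of the 14217 genes measured. They were chosen by symbol, and 17 of the 20826 probe sets annotated with a single gene symbol belong to them. The probe set with the highest mean over all arrays stands for each gene, and its other probe sets are given beside it.

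Lung RNA came from 38 female N:NIH rats aged 34 weeks, of lines selectively bred for low (LCR) or high (HCR) intrinsic exercise capacity. The 4 groups were 12 LCR rats exposed to cigarette smoke (LCR smoke), 7 LCR rats kept in room air (LCR sham), 12 HCR rats exposed to smoke (HCR smoke) and 7 HCR rats in room air (HCR sham). Rats were exposed 5 days a week for 12 weeks before the lung was sampled, with 1 Affymetrix Rat Genome 230 2.0 array per animal. The RNA is of lung tissue with its cells unsorted, so every value averages over all lung cell types. The labels of 1 LCR sham animal give its tissue without its own strain, age or sex, which the shared growth protocol covers. Values are linear intensities as deposited, and differences are of log2(intensity + 16), a scale that understates the change of dim probe sets. Tests are limma's moderated tests, with p-values adjusted by Benjamini-Hochberg over all 14217 genes and a threshold of 0.05. The number of arrays limits the precision.

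As background, the liver X receptor encoded by Nr1h3 is activated by oxidised derivatives of cholesterol and, paired with a retinoid X receptor, switches on Abca1, Abcg1 and Apoe. ABCA1 and ABCG1 move cholesterol across membranes onto lipoprotein particles, and apolipoprotein E carries it away. Cholesterol that stays in the cell is esterified by SOAT1 and stored with triglyceride in droplets coated by perilipin 2. Fatty acids reach the cell through lipoprotein lipase and are carried inside it by the fatty acid binding proteins FABP4 and FABP5. In the lung, alveolar macrophages and type 2 cells, which make surfactant, carry much of this lipid traffic.

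The tissue's own markers were present on every array: the surfactant gene Sftpc lay between 9830 and 10919, and the endothelial gene Pecam1 between 500.1 and 1272. Some arrays stood apart. HCR sham 0432 had a 3′ minus 5′ difference of 2.06 log2 between the Actb control probe sets, against at most 0.829 on its group's other arrays. HCR sham 0433 had an adipocyte marker list mean of 2.39 (log2, relative to the all-array mean), where the rest of its group reached 0.53, and a skeletal muscle list mean of 5.30, where the rest reached -0.04. Heart muscle list means were highest on LCR sham 0442 (3.94) and HCR smoke 0415 (3.63). The interquartile range of an array averaged 2.92 ± 0.08 log2 in LCR smoke against 3.002 ± 0.022 in LCR sham, and 2.86 ± 0.06 in HCR smoke against 2.99 ± 0.04 in HCR sham (SD, n = 12 and 7).

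**Figure D1:**
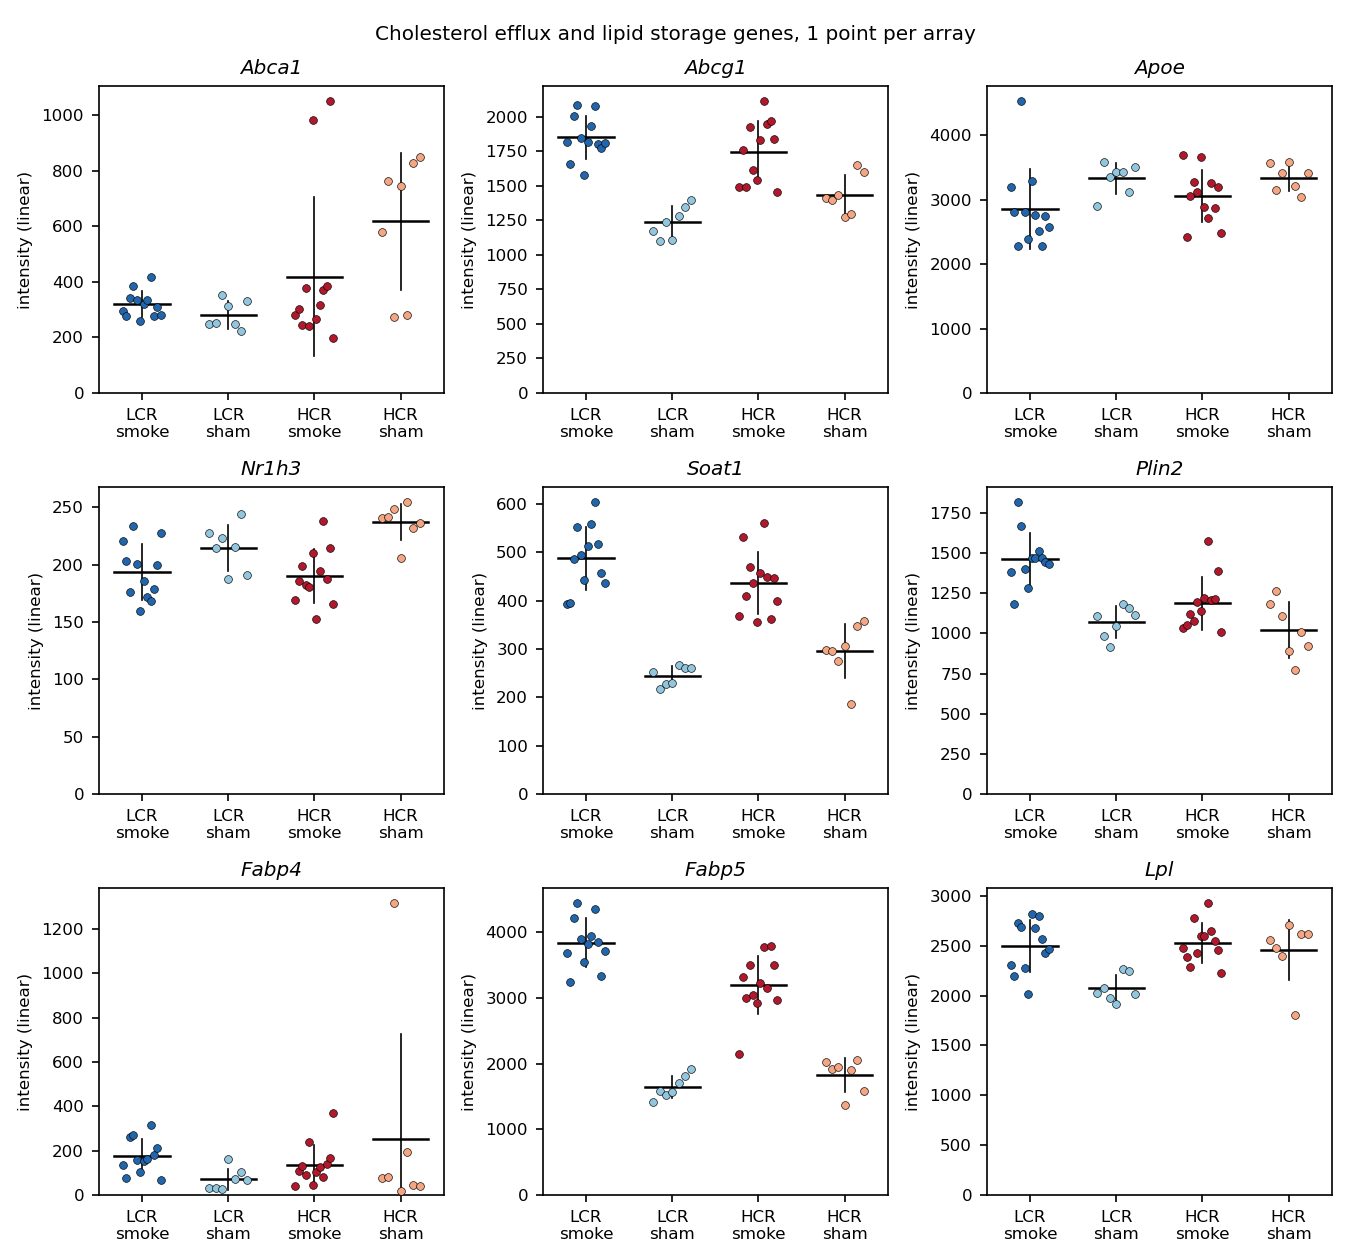
Linear intensity (vertical axis, from 0) of the highest-mean probe set of each gene, 1 point per array, in LCR smoke (n = 12), LCR sham (n = 7), HCR smoke (n = 12) and HCR sham (n = 7). Horizontal bars are group means and vertical bars 1 SD. Fabp5 on the smoke arrays, from 2138 to 4447, lay above every sham array, while Fabp4 in HCR sham had 1 array at 1318.

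Under smoke more of these genes were higher than lower in both lines, while over all genes more were lower than higher. In LCR lungs 6 of the 9 passed the test as higher (Abcg1, Soat1, Plin2, Fabp4, Fabp5 and Lpl) and 1 as lower (Apoe), where 22.7% of all genes were called higher, 27.9% lower and 50.6% in either direction. In HCR lungs 4 passed as higher (Abcg1, Soat1, Plin2 and Fabp5) and 2 as lower (Nr1h3 and Abca1), where 17.7% of all genes were called higher, 30.4% lower and 48.0% in either direction. The median difference of the 9 genes was 0.44 log2 in LCR, against -0.00 for all genes, and 0.20 in HCR, against -0.03 for all genes. Because whole lung was measured, more cells of a type and more RNA per cell cannot be told apart in any of these results.

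**Figure D2:**
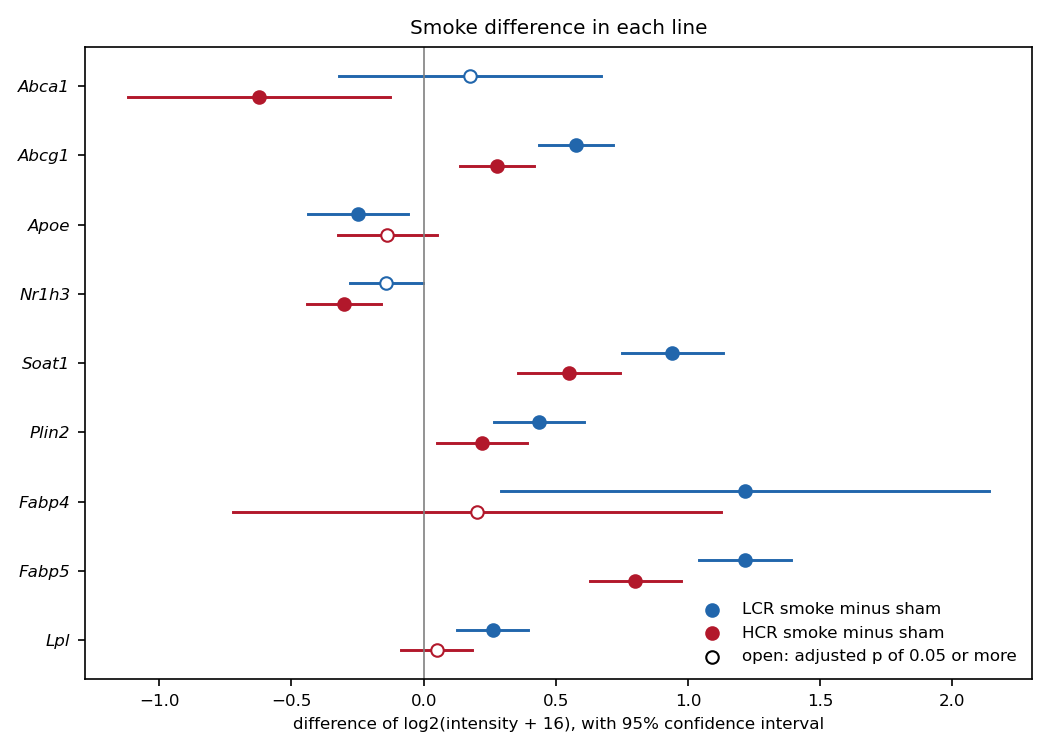
Smoke minus sham difference of log2(intensity + 16) (horizontal axis) with its 95% confidence interval for each of the 9 genes (vertical axis), LCR in blue above HCR in red. Filled points passed limma's adjusted p threshold of 0.05. Fabp5, at 1.21 in LCR and 0.80 in HCR, and Soat1, at 0.94 and 0.55, lay well to the right of 0 in both lines.

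Nr1h3, the sterol sensor liver X receptor alpha, was lower under smoke in HCR lungs. Its intensity had a lowest, median and highest value of 153, 186 and 238 in HCR smoke, against 206, 240 and 255 in HCR sham. The difference was -0.30 ± 0.069 log2 (SE; limma adjusted p = 0.000509), with 11 of 12 smoke arrays below the sham mean, although the ranges overlapped. In LCR the values were 159, 193 and 234 in smoke lungs, against 187, 216 and 244 in sham lungs. That difference of -0.14 log2 (95% interval -0.28 to -0.00) had a limma adjusted p of 0.0854. It passed the threshold without LCR sham 0442 (-0.17, adjusted p = 0.0481), LCR smoke 0426 (-0.16, 0.0412) or LCR smoke 0424 (-0.16, 0.0483). The HCR difference was -0.19 with an adjusted p of 0.108 when the array's interquartile range entered the limma fit. That range itself averaged lower under smoke, so the covariate takes up part of the smoke difference.

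Abca1, the exporter that loads cholesterol onto lipid-poor apolipoproteins, gave different answers by probe set. The brightest, 1382431_at, had a lowest, median and highest intensity of 197, 310 and 1052 in HCR smoke, against 273, 745 and 851 in HCR sham. Within HCR smoke 10 arrays lay between 197 and 385 and the other two, 0409 and 0408, at 981 and 1052. Within HCR sham 0433 and 0432 lay at 273 and 281 and the other 5 between 580 and 851. In LCR the same probe set was narrow, with 258, 315 and 417 in smoke lungs, against 224, 253 and 354 in sham lungs.

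For this probe set the HCR smoke difference was -0.62 ± 0.245 log2 (limma adjusted p = 0.0344), and the LCR difference was 0.18 (95% interval -0.32 to 0.67). The coefficient of variation was 68.4% in HCR smoke and 40.2% in HCR sham, against 14.7% in LCR smoke and 17.8% in LCR sham. Limma's error is pooled over all 4 groups, so the LCR interval also holds the HCR scatter. The HCR call was lost, with limma adjusted p from 0.0504 to 0.0920, without any 1 of HCR smoke 0410, 0413, 0415, 0417 or 0419 or of HCR sham 0434, 0435, 0436, 0438 or 0439. Over the leave-one-out fits the difference ranged from -0.79 to -0.53. Without HCR smoke 0410, 0414, 0415 and 0417, the arrays with high heart muscle means in that group, it was -0.36 (adjusted p = 0.267), a setting chosen after seeing the data.

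Probe set 1394490_at showed the same wide scatter in HCR, with 70.1, 146 and 363 in smoke lungs, against 106, 213 and 283 in sham lungs, and its difference of -0.29 log2 did not pass (limma adjusted p = 0.252). The remaining Abca1 probe sets rose with smoke in both lines. For 1383355_at the lowest, median and highest values were 312, 355 and 495 in LCR smoke, against 254, 278 and 340 in LCR sham, a difference of 0.38 ± 0.11 log2 (limma adjusted p = 0.00461 over all probe sets). In HCR the same probe set had 226, 351 and 515 in smoke lungs, against 235, 277 and 331 in sham lungs, a difference of 0.28 ± 0.11 log2 (adjusted p = 0.0389). Probe set 1384381_at was higher by 0.45 log2 in LCR and by 0.31 log2 in HCR (limma adjusted p = 0.00208 and 0.0293). Averaged over the gene's 4 probe sets, the HCR difference of Abca1 was -0.08 log2 (limma adjusted p = 0.674), so the direction of Abca1 under smoke in HCR depends on the probe set.

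**Figure D3:**
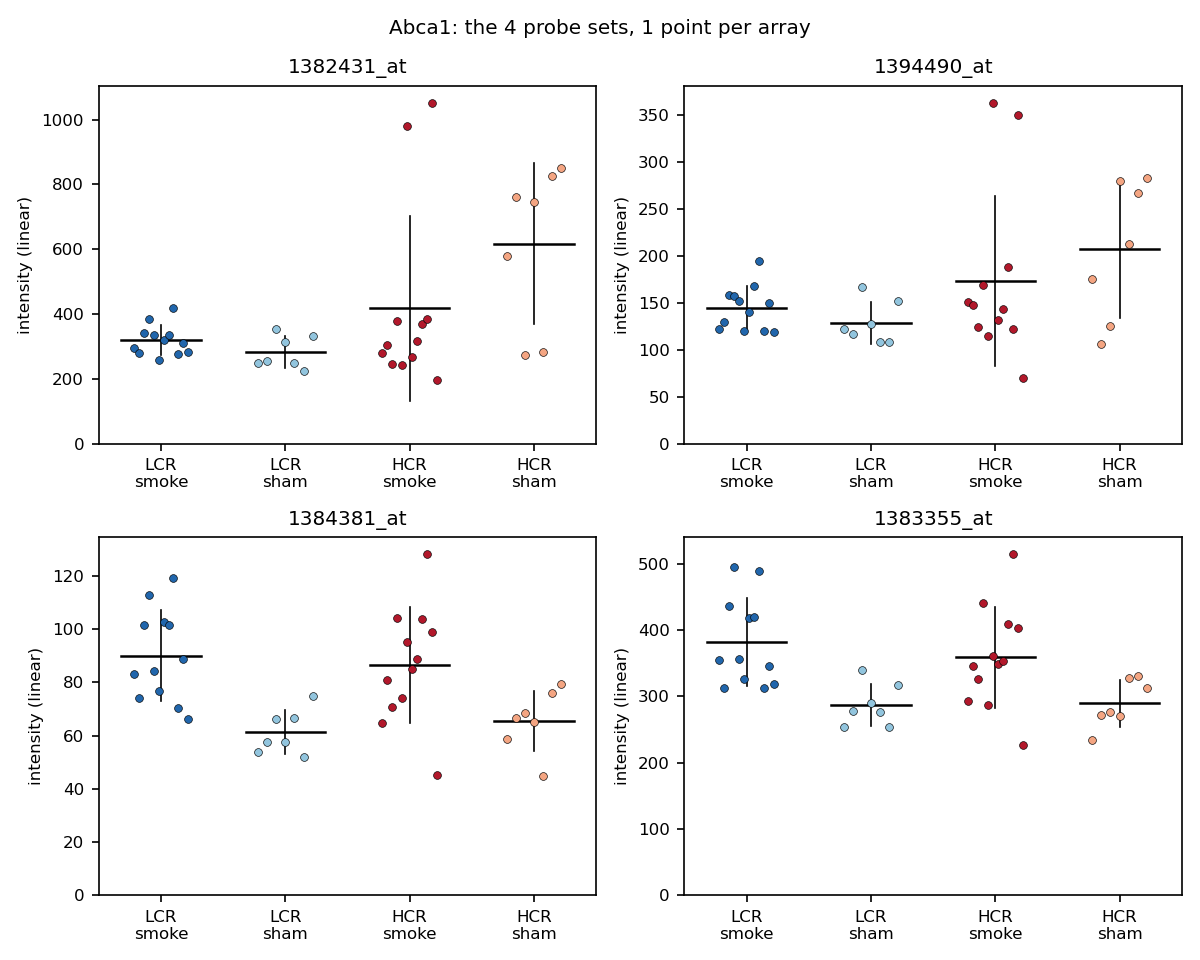
Linear intensity (vertical axis, from 0) of the 4 Abca1 probe sets, 1 point per array, by group. Bars are the group mean and 1 SD. The top panels, 1382431_at and 1394490_at, spread widely in both HCR groups, while the bottom panels, 1384381_at and 1383355_at, averaged higher in smoke than in sham lungs of both lines.

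The start of Abca1 is shown because it is the best-known direct target of the liver X receptor among these genes. The 120 bases just before its start site lie at chr5:72596474-72596593 on the minus strand of build GRCr8 (RefSeq), and are printed in the direction of the gene.
Abca1: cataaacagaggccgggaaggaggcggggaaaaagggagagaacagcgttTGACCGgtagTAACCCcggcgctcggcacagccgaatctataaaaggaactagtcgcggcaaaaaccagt
The capitals mark a pair of half-sites related to AGGTCA, read on the other strand and spaced by 4 bases, the arrangement that liver X receptors bind. The pair starts 70 bases before the start site and has 2 mismatches in one half-site and 1 in the other. It was found only with a looser rule, chosen after the sequence was seen, of at most 3 mismatches in all, and 18.6% of 33469 promoter windows (250 bases before to 50 after a start) hold such a pair on either strand. With at most 1 mismatch per half-site, 1.74% of windows held a pair spaced by 4 bases and 2.26% a pair spaced by 1, and 0 of the 5 members with a promoter in the table did (Abca1, Soat1, Plin2, Nr1h3 and Apoe, 8 windows in all). The looser rule found a pair spaced by 1 base, the arrangement bound by peroxisome proliferator-activated receptors, in windows of Apoe and Plin2, and in 21.8% of all windows. A match describes letters in the window and is not evidence of binding.

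Abcg1, the exporter that passes cholesterol to mature high-density lipoprotein, rose in both lines. Its intensity was 1579, 1816 and 2085 (lowest, median, highest) in LCR smoke, against 1103, 1240 and 1395 in LCR sham, with no overlap. The LCR difference was 0.58 ± 0.069 log2 (limma adjusted p = 2.1e-08). In HCR it was 1455, 1791 and 2115 in smoke lungs, against 1277, 1412 and 1647 in sham lungs, ranges that overlapped. All 12 HCR smoke arrays nonetheless exceeded the sham mean, and the difference was 0.28 ± 0.069 log2 (limma adjusted p = 0.00137). Probe set 1387054_at rose more, by 0.87 log2 in LCR and 0.61 in HCR (limma adjusted p = 1.67e-06 and 0.000327). Probe set 1373995_at rose in LCR by 0.33 (adjusted p = 0.00764) and had a difference of -0.02 in HCR (adjusted p = 0.883).

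Apoe, which encodes the lipoprotein that accepts exported cholesterol, fell slightly in LCR. Its values were 2281, 2756 and 4542 in LCR smoke, against 2912, 3432 and 3592 in LCR sham. The highest value, on LCR smoke 0426, lay above every sham array, and the other 11 LCR smoke arrays lay below the sham mean. The difference of -0.25 ± 0.093 log2 had a limma adjusted p of 0.0256, which became 0.0523 without LCR sham 0440 (-0.23). It also missed the threshold with median-centred arrays (-0.19, adjusted p = 0.0627), with only the LCR arrays in the fit (0.0516) and with the interquartile range as a covariate (-0.12, 0.355). That range itself averaged lower under smoke. In HCR the values were 2419, 3092 and 3703 in smoke lungs, against 3046, 3413 and 3585 in sham lungs, a difference of -0.14 log2 (95% interval -0.33 to 0.05, adjusted p = 0.225). A further Apoe probe set, 1371288_at, lay between 4.24 and 7.12 on all arrays, near the bottom of the table, and did not pass in either line. The mean of both Apoe probe sets gave -0.12 in LCR (adjusted p = 0.0535).

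Soat1, whose enzyme esterifies cholesterol for storage, rose in both lines. Its lowest, median and highest intensities were 394, 490 and 605 in LCR smoke, against 217, 253 and 267 in LCR sham, so every LCR smoke array exceeded every LCR sham array. The LCR difference was 0.94 ± 0.095 log2, a fold of 1.92 (limma adjusted p = 7.41e-10). In HCR it had 356, 442 and 560 in smoke lungs, against 187, 298 and 358 in sham lungs, ranges that touch at one array on each side. The HCR difference was 0.55 ± 0.095 log2, a fold of 1.46 (limma adjusted p = 1.61e-05). The lowest HCR sham value, 187, came from array 0432. Its second probe set, 1369002_at, gave 1.03 in LCR and 0.63 in HCR (limma adjusted p = 2.52e-05 and 0.0062).

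Plin2, the coat protein of lipid droplets in most cells, rose in LCR and, less firmly, in HCR. LCR smoke arrays had 1187, 1456 and 1822, against 913, 1109 and 1185 in LCR sham, so the groups did not overlap. The LCR difference was 0.44 ± 0.084 log2 (limma adjusted p = 5.18e-05). HCR smoke arrays had 1009, 1170 and 1578, against 775, 1006 and 1262 in HCR sham, and the difference was 0.22 ± 0.084 log2 (limma adjusted p = 0.0293). The HCR call was lost without HCR sham 0432 (0.16, adjusted p = 0.117), HCR sham 0434 (0.20, 0.0662), HCR sham 0439 (0.19, 0.0725) or HCR smoke 0418 (0.18, 0.0561). It was also lost with only the HCR arrays in the fit (adjusted p = 0.0650) and with a Gapdh 3′ minus 5′ term for RNA quality in the model (0.15, 0.152). Probe set 1382680_at rose by 0.56 log2 in LCR and 0.37 in HCR (limma adjusted p = 1.35e-06 and 0.000596).

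Fabp5, the fatty acid carrier of epidermis and macrophages, had the smallest adjusted p of the 9 genes in both lines. Its intensity was 3245, 3832.5 and 4447 in LCR smoke, against 1422, 1576 and 1910 in LCR sham. In HCR it was 2138, 3183 and 3787 in smoke lungs, against 1362, 1917 and 2059 in sham lungs. No smoke array overlapped the sham arrays of its line. The differences were 1.21 ± 0.085 log2 in LCR, a fold of 2.32 (limma adjusted p = 2.82e-13), and 0.80 ± 0.085 log2 in HCR, a fold of 1.74 (limma adjusted p = 7.9e-09). Both kept their direction and their call in all 38 fits that left out 1 array.

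Fabp4, the fatty acid carrier of adipocytes and also of macrophages, had the same size of difference in LCR with a much larger error. Its values were 69.2, 159 and 316 in LCR smoke, against 27.5, 69.6 and 161 in LCR sham, ranges that overlapped. The difference was 1.21 ± 0.455 log2 (limma adjusted p = 0.0257). Limma's error is pooled over all 4 groups. The log2 SD of Fabp4 was 0.62 in LCR smoke and 0.78 in LCR sham, against 0.78 in HCR smoke and 1.76 in HCR sham. The LCR difference missed the threshold without LCR sham 0440 (1.09, adjusted p = 0.0584), LCR sham 0441 (1.08, 0.0626) or LCR sham 0445 (1.10, 0.0586). In HCR it had 41.5, 118 and 369 in smoke lungs, against 17.2, 76.0 and 1318 in sham lungs, and the difference of 0.20 log2 (95% interval -0.72 to 1.12) did not pass (adjusted p = 0.741). The HCR sham value of 1318 came from array 0433, and the next highest, 193, from array 0432. When both were left out together, a choice made after seeing the data, the HCR difference was 1.07 (limma adjusted p = 0.0186). Fabp4 and Fabp5 lie on the same chromosome with 6 annotated genes between them in the GRCr8 gene table, of which Fabp9 and Pmp2, also of this family, code for proteins.

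Fat markers moved with Fabp4 on single arrays. The defining adipocyte gene Adipoq was at 133 on HCR sham 0433 and at most 56.0 on the other HCR sham arrays, with 5.48 to 57.9 in HCR smoke, 5.70 to 12.3 in LCR smoke and 6.59 to 11.03 in LCR sham. Plin1, the droplet coat protein of fat cells, was at 71.4 on HCR sham 0433 and at most 23.2 elsewhere in that group. Across the 38 arrays, deviations of Fabp4 from its group means correlated with those of the adipocyte list mean (Pearson r = 0.80, Spearman rho = 0.58, permutation p adjusted over 54 relations = 0.000108 and 0.0033). Without the 2 arrays farthest out in Fabp4, r was 0.61. Abca1, read only on its brightest probe set, ran the other way against the same list (r = -0.57, rho = -0.59, permutation adjusted p = 0.000337 and 0.00184). Without the 2 arrays farthest out in Abca1, r was -0.68. The arrays left out differ by gene, and HCR sham 0433 was not among those of Abca1. The adipocyte list had 0 members higher and 1 lower, Lipe, of 11 measured in either line under limma's test. Over all genes 50.6% were called in LCR and 48.0% in HCR. The list medians were 0.00 log2 in LCR and -0.39 in HCR, so few calls do not show that fat was unchanged. The part of fat tissue in the Fabp4 and Abca1 results was not tested.

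Lpl, the secreted lipase that releases fatty acids from triglyceride-rich lipoproteins, rose modestly in LCR. Its values were 2017, 2519 and 2817 in LCR smoke, against 1917, 2027 and 2268 in LCR sham. The difference was 0.26 ± 0.066 log2 (limma adjusted p = 0.00131), with 11 of 12 smoke arrays above the sham mean and overlapping ranges. In HCR the values were 2227, 2514 and 2933 in smoke lungs, against 1810, 2562 and 2712 in sham lungs, a difference of 0.05 log2 (95% interval -0.08 to 0.18, adjusted p = 0.561). The lowest HCR sham value, 1810, was again that of array 0432.

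Few of the 9 genes passed between the lines. Under sham, 1 of 9 passed, lower in LCR, where 3.73% of all genes were called, 1.39% as higher and 2.34% as lower. That gene was Abca1 on its brightest probe set, with a difference of -0.98 ± 0.275 log2 (limma adjusted p = 0.0362), LCR minus HCR. It missed the threshold, with adjusted p from 0.0501 to 0.0944 and values from -1.01 to -0.88, without any 1 of LCR sham 0440, 0442, 0444, 0445 or 0446 or of HCR sham 0434, 0435, 0436, 0438 or 0439, and the mean of its probe sets gave -0.41 (adjusted p = 0.164). Lpl had a sham difference of -0.23 (adjusted p = 0.0682), which became -0.30 (adjusted p = 0.00346) without HCR sham 0432. Soat1 had one of -0.24 (adjusted p = 0.236), which became -0.34 (adjusted p = 0.0287) without the same array.

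Under smoke, 2 of 9 passed, both higher in LCR, where 6.32% of all genes were called, 4.61% as higher and 1.7% as lower. Fabp5 was higher in LCR smoke than in HCR smoke by 0.27 ± 0.073 log2 (limma adjusted p = 0.0213), and Plin2 by 0.30 ± 0.072 log2 (adjusted p = 0.0106). Each held in all 38 fits that left out 1 array. The other Plin2 probe set, 1382680_at, had a difference of 0.18 log2 that did not pass (limma adjusted p = 0.133). Without HCR smoke 0410, 0414, 0415 and 0417 together, the differences were 0.25 for both genes, with adjusted p of 0.0923 for Fabp5 and 0.0853 for Plin2.

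The smoke change itself was set against that of the other line as an interaction, the change in LCR minus that in HCR. It was positive for 8 of the 9 genes, with a median of 0.30 log2 against 0.02 for all genes. By limma 0 of 9 passed after adjustment, where 1.87% of all genes were called (1.52% with a positive and 0.352% with a negative value), while 5 of 9 had an unadjusted p under 0.05, against 18.7% of all genes. The values were 0.41 for Fabp5 (95% interval 0.17 to 0.66, adjusted p = 0.0586), 0.39 for Soat1 (0.12 to 0.66, 0.107) and 0.30 for Abcg1 (0.10 to 0.50, 0.0889). They were 0.21 for Lpl (0.02 to 0.40, 0.207) and 0.80 for Abca1 on its brightest probe set (0.10 to 1.501, 0.199). The other Abca1 probe sets, 1394490_at, 1384381_at and 1383355_at, gave 0.43, 0.13 and 0.10 (limma adjusted p = 0.454, 0.731 and 0.786). A larger smoke change in LCR was therefore not shown for any single one of the 9 genes.

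Some arrays decided these interaction calls. Without HCR sham 0432, the array with the high Actb difference, 3 of the 9 passed by limma: Soat1 (0.49, adjusted p = 0.0141), Lpl (0.28, 0.0344) and Abcg1 (0.32, 0.0492). Fabp5 passed without HCR sham 0439 (0.48, adjusted p = 0.0169), LCR sham 0443 (0.45, 0.0458), HCR smoke 0418 (0.44, 0.0436), HCR smoke 0412 (0.44, 0.0397) or LCR smoke 0420 (0.44, 0.0422). With HCR sham 0432 and 0433 both left out, a choice made after seeing the data, Abca1 on its brightest probe set (1.19, 0.0259), Soat1 (0.52, 0.0112) and Lpl (0.30, 0.0322) passed.

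Macrophage markers moved with these genes. Of 15 measured markers, 11 rose and 2 fell in LCR under smoke by limma, with a median difference of 0.93 log2, and 10 rose and 3 fell in HCR, with a median of 0.45. Over all genes 22.7% were called higher and 27.9% lower in LCR, and 17.7% higher and 30.4% lower in HCR. Their list mean, relative to the mean of all arrays, lay between -0.00 and 0.72 in LCR smoke against -0.79 to -0.43 in LCR sham, and between -0.17 and 0.53 in HCR smoke against -0.50 to -0.19 in HCR sham. The defining marker Cd68 had lowest and highest values of 768 and 1426 in LCR smoke, against 212 and 375 in LCR sham, and of 411 and 1316 in HCR smoke, against 304 and 494 in HCR sham. The markers that fell in both lines were Adgre1 and Cd163. Cd68 was no lower than 212 and C1qb, another macrophage marker, no lower than 97.7 on any array, where the lowest intensity of any probe set was 2.09. Neutrophil markers also rose, 5 of 8 measured in each line, and endothelial markers fell, 9 of 10 in LCR and 8 of 10 in HCR, while of 10 type 2 cell markers 7 rose and 0 fell in LCR, and 3 rose and 1 fell in HCR. The part of these cell types in the results was not tested.

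Within groups, several of the 9 genes varied with the macrophage list from animal to animal. Deviations from group means over the 38 arrays correlated with those of the list mean at Pearson r = 0.79 for Fabp5 (Spearman rho = 0.79), 0.71 for Abcg1 (0.72), 0.60 for Soat1 (0.62) and 0.59 for Plin2 (0.60). All 4 had permutation p-values adjusted over 54 relations of 0.00103 or less. Without the 2 arrays farthest out in each gene, which differ by gene, r lay between 0.54 and 0.74. Fabp4 varied with the list less closely (r = 0.43, rho = 0.47, adjusted p = 0.00972 and 0.0122, and r = 0.44 without its own 2 farthest arrays). Lpl passed by Pearson alone (r = 0.39, rho = 0.37, adjusted p = 0.0469 and 0.0659, and r = 0.36 without its own 2 farthest arrays). For Abca1, read only on its brightest probe set, r was 0.00, rho 0.10 and r without its own 2 farthest arrays 0.19. For Nr1h3 they were 0.08, -0.07 and 0.16. For Apoe they were -0.02, -0.24 and -0.33, so its value near 0 rests on 2 arrays. None of these 3 genes passed, with adjusted p of 0.308 or more by either measure. The share of all genes that would pass against the list was not computed. The other Abca1 probe sets were not correlated with either list. Both sides of each correlation come from the same array and share its RNA quality and scaling.

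**Figure D4:**
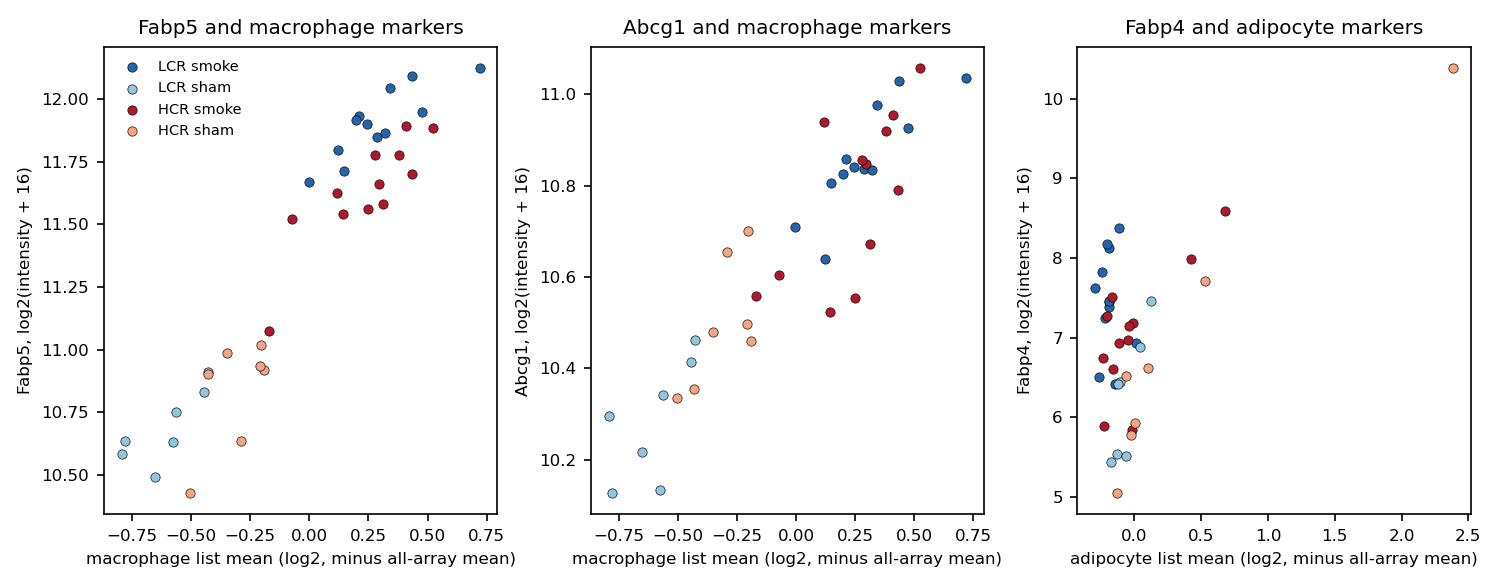
Level of Fabp5, Abcg1 and Fabp4 (vertical axes, log2(intensity + 16)) against the mean of the macrophage or adipocyte marker list (horizontal axes, log2 relative to the mean of all arrays), 1 point per array, coloured by group. Over all groups together, arrays with a higher macrophage mean had more Fabp5 and Abcg1. The values are not centred on group means, so this trend includes the smoke difference. In the Fabp4 panel HCR sham 0433 stood alone at an adipocyte mean of 2.39.

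Among the 9 genes, 9 of 36 pairs passed by both Pearson and Spearman correlation of deviations from group means (permutation p adjusted over 54 relations). How many of all gene pairs would pass was not computed, so this count has no background share beside it. The strongest of the 9 were Soat1 with Lpl (r = 0.71, rho = 0.65), Abcg1 with Fabp5 (0.70, 0.76), Abcg1 with Soat1 (0.63, 0.65) and Abcg1 with Lpl (0.62, 0.56). For Soat1 with Plin2, r was 0.50 over all arrays and 0.30 without the 2 arrays farthest out in Soat1.

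By the same measure over 38 arrays, the genes most like Fabp5 were Capg (r = 0.87), Cd33 (0.84) and Ctsz (0.83), and those most like Abcg1 were Cd200r1l (0.86), Pla2g15 (0.86) and Pld3 (0.85). Soat1 lay nearest to Sgpl1 (0.77), Plin2 to Lpcat1 (0.80), Lpl to Lyn (0.78), and Fabp4 to Pgm1 (0.86), Thrsp (0.81) and Plin1 (0.78). Nr1h3, Apoe and Abca1 had lower nearest values, with Cntrl (0.75), Hoxb6 (0.68) and Vnn1 (0.67). As in the other correlations, only the highest-mean probe set of each gene was used.

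Further genes of sterol and lipid handling, from lists of their partners, were read in the same fit, where 22.7% of all genes were called higher and 27.9% lower in LCR, and 17.7% higher and 30.4% lower in HCR. Among nuclear receptors and their cofactors, 3 of 10 measured genes rose and 4 fell in LCR, and 1 rose and 4 fell in HCR, so 7 and 5 of 10 were called against 50.6% and 48.0% of all genes. The list medians were -0.11 log2 in LCR and -0.13 in HCR, against -0.00 and -0.03 for all genes. The retinoid X receptor gene Rxrb, whose product pairs with the liver X receptor, fell to 64.7 ± 5.9 in LCR smoke, against 82.1 ± 5.4 in LCR sham, and to 63.0 ± 5.4 in HCR smoke, against 82.4 ± 10.5 in HCR sham. The differences were -0.28 and -0.31 log2 (limma adjusted p = 1.9e-05 and 6.4e-06). Rxrg fell by 0.72 log2 in LCR (adjusted p = 3.1e-08) and by 0.26 in HCR (0.0132), where it missed the threshold without HCR sham 0432 (-0.19, 0.0648). Pparg, a master regulator of lipid storage that alveolar macrophages need, rose in LCR, at 89.4 ± 14.9 in smoke lungs against 66.4 ± 11.8 in sham lungs (0.35 log2, adjusted p = 0.0014), and in HCR had a difference of -0.12 (adjusted p = 0.27).

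Of 12 measured further targets of the liver X receptor, 3 rose and 3 fell in LCR, and 2 rose and 2 fell in HCR, with medians of 0.05 and 0.04 log2. The 6 and 4 of 12 called were at and below the shares of all genes, 50.6% and 48.0%. Smpdl3a, which encodes a sterol-induced phosphodiesterase, rose to 1509 ± 242 in LCR smoke, against 658 ± 108 in LCR sham, and to 1177 ± 219 in HCR smoke, against 745 ± 166 in HCR sham. Its differences were 1.18 and 0.66 log2 (limma adjusted p = 2.9e-09 and 7.7e-05). Pltp, the phospholipid transfer protein, fell by 0.41 log2 in LCR and by 0.37 in HCR (adjusted p = 1.2e-07 and 1.2e-06). Lpcat3, which remodels membrane phospholipids, rose by 0.50 log2 in LCR (adjusted p = 7.2e-05) and had a difference of 0.12 in HCR (adjusted p = 0.33), which was -0.0081 without HCR sham 0432 (adjusted p = 0.944).

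Of 15 measured genes of intracellular cholesterol transport and oxysterol synthesis, 7 rose and 2 fell in LCR, and 7 rose and 3 fell in HCR. The 9 and 10 called compare with 50.6% and 48.0% of all genes, and the list medians were 0.13 and 0.07 log2. Ch25h, which makes an oxysterol that activates the liver X receptor, rose the most. It was at 433 ± 84 in LCR smoke, against 129 ± 25 in LCR sham, and at 450 ± 160 in HCR smoke, against 176 ± 69 in HCR sham. The differences were 1.62 and 1.28 log2 (limma adjusted p = 1.9e-08 and 2.3e-06). Cyp27a1, whose mitochondrial enzyme makes another oxysterol, fell by 0.49 in LCR and by 0.44 in HCR (adjusted p = 2.3e-05 and 0.00011).

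In the same list, Nceh1 and Lipa rose in both lines. Nceh1, a hydrolase of cholesterol esters, was higher by 0.67 log2 in LCR and 0.32 in HCR (limma adjusted p = 2e-08 and 0.0015). Lipa, the lysosomal acid lipase, was higher by 0.50 and 0.27 (adjusted p = 1.6e-06 and 0.0035). Abca7, a relative of Abca1, fell by 0.29 in LCR and by 0.34 in HCR (adjusted p = 0.00032 and 6.6e-05).

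Of 23 measured lipid droplet genes, 4 rose and 4 fell in LCR, and 2 rose and 5 fell in HCR. The 8 and 7 called were fewer than the shares of all genes, 50.6% and 48.0%, would give, and the list medians were 0.01 and -0.11 log2. Hilpda, a droplet protein that inhibits lipolysis, rose by 0.80 log2 in LCR and 0.42 in HCR (limma adjusted p = 1.3e-09 and 9.5e-05). Dgat2, which completes triglyceride synthesis, rose in LCR to 411 ± 39 in smoke lungs, against 228 ± 49 in sham lungs (0.82 log2, adjusted p = 2.1e-06), with a HCR difference of 0.29 (adjusted p = 0.058). In HCR it passed without HCR sham 0433 (0.43, adjusted p = 0.00211), HCR sham 0434 (0.36, 0.0265), HCR smoke 0419 (0.34, 0.0252) or LCR sham 0440 (0.29, 0.0498). Lipe, the hormone-sensitive lipase that breaks down stored triglyceride and cholesterol esters, fell to 181 ± 18 in LCR smoke, against 364 ± 48 in LCR sham, and to 182 ± 26 in HCR smoke, against 362 ± 76 in HCR sham. Its differences were -0.95 and -0.91 log2 (adjusted p = 1.5e-09 and 1.1e-08). G0s2, an inhibitor of the lipase encoded by Pnpla2, fell by 0.64 in LCR and by 0.75 in HCR (adjusted p = 0.00039 and 6.7e-05).

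Among the partners of Lpl and receptors for lipoproteins, 2 of 11 measured rose and 2 fell in LCR, and 2 rose and 3 fell in HCR, so 4 and 5 of 11 were called, shares below those of all genes. Lmf2, related to the maturation factor of lipases, fell by 0.39 in LCR and by 0.38 in HCR (limma adjusted p = 1.3e-05 and 2.5e-05). Gpihbp1, which anchors lipoprotein lipase on capillaries, differed between the lines under sham, with -0.82 log2 in LCR minus HCR (adjusted p = 0.022), and passed in neither smoke comparison. Of 10 measured scavenger receptors and fatty acid transporters, 4 rose and 2 fell in LCR, and 5 rose and 2 fell in HCR, where 22.7% of all genes were called higher and 27.9% lower in LCR, and 17.7% higher and 30.4% lower in HCR. The list medians were 0.11 and 0.15 log2. Cd36, which takes up fatty acids and oxidised lipoprotein, rose to 1342 ± 125 in LCR smoke, against 771 ± 146 in LCR sham, and to 1260 ± 138 in HCR smoke, against 970 ± 285 in HCR sham. Its differences were 0.80 and 0.45 log2 (adjusted p = 8.9e-06 and 0.0073), and the HCR one was 0.23 without HCR sham 0432 (adjusted p = 0.0262). Of the 8 other fatty acid binding protein genes measured, 2 passed as higher in LCR, Fabp1 and Fabp2, both by under 0.1 log2 and at mean intensities under 10, and 0 passed in HCR. Fabp1 missed the threshold without LCR sham 0441, 0443 or 0445 or LCR smoke 0423, and Fabp2 in 27 of 38 fits that left out 1 array (adjusted p up to 0.0576 and 0.117).

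**Figure D5:**
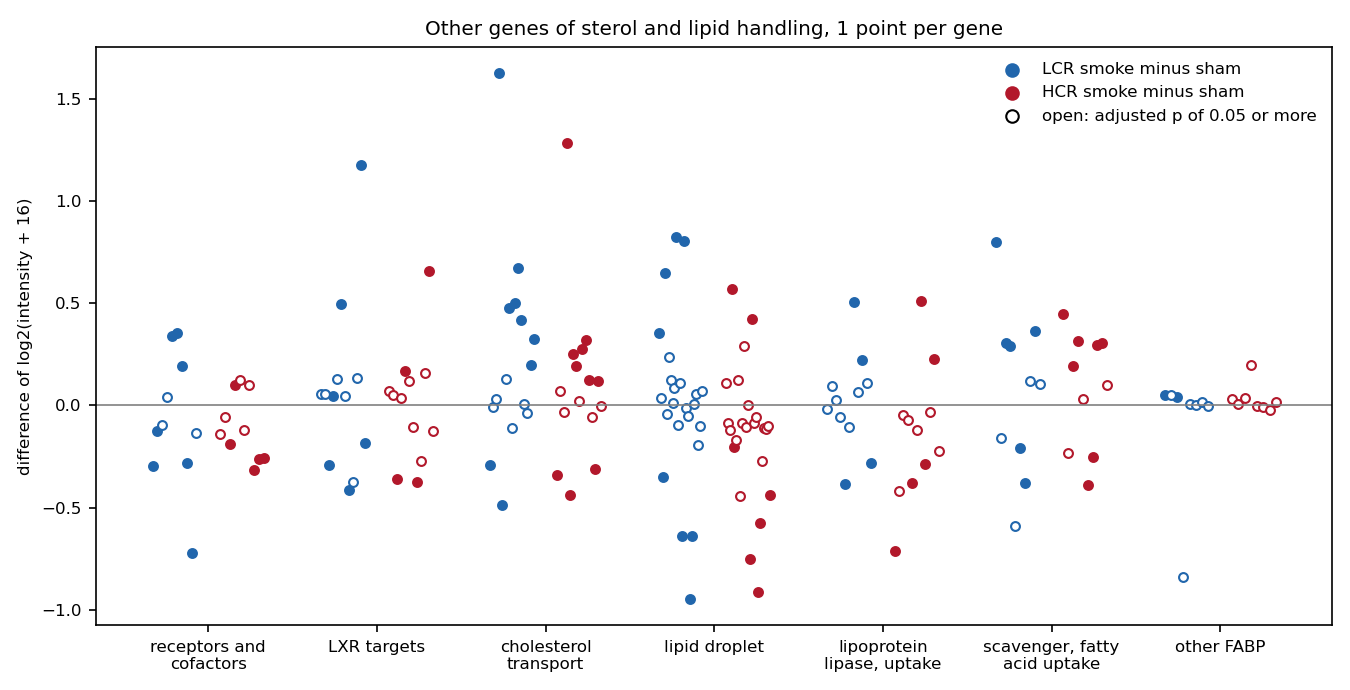
Smoke minus sham difference of log2(intensity + 16) (vertical axis) for each measured gene of 7 lists (horizontal axis), LCR in blue left of HCR in red, 1 point per gene. Filled points passed limma's adjusted p threshold of 0.05. The highest points are Ch25h, at 1.62 in LCR and 1.28 in HCR, and most lists hold filled points on both sides of 0.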

How the data were processed

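The authors deposited 1 table of linear intensity values for 31099 probe sets on 38 arrays, from 2.09 to 11558. No summarising or normalizing software is given by the labels used here. Per the labels' protocols, total RNA was isolated from lung with an RNeasy kit. Groups come from the labels, and replicates are separate animals.

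Values were analysed as log2(intensity + 16) as they stood. The table holds 57 control probe sets. In all, 20826 had 1 symbol in the platform annotation, 436 several and 9780 none. For each gene the probe set with the highest mean was used, giving 14217 genes. Of the 20826, 20758 had a gene ID in RefSeq's GRCr8 table, and 0 symbols were updated. Limma 3.58.1 in R 4.3.3 fitted the 4 group means over all arrays (34 residual degrees of freedom), two-sided, with 5 contrasts. A second fit held all 20826 probe sets and gave the values of further probe sets.

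The 9 genes, the lists, the tests and the alternatives were chosen with earlier results of these data known. Named genes of each list are up to 4 per direction by adjusted p among those that passed under smoke. Gpihbp1 was named outside that rule, with its values already seen. Some genes stand in both a partner list and a marker list, so these lists are not separate readings. They are Msr1 and Marco (scavenger receptors and macrophage), Plin1, Cidea, Cidec and Lipe (lipid droplet and adipocyte) and Gpihbp1 (lipoprotein uptake and endothelial). Correlations used deviations from group means, with two-sided permutation tests of 100000 resamples within groups (SciPy 1.17.1), 54 relations in all, whose smallest possible p is 1e-05.

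On simulated data with known changes, 200 genes of 14217 were shifted by 0.5 log2, and limma called 90.5% of them in LCR and 92.0% in HCR, with 10.8% and 5.15% of the calls false. The simulated noise was normal and independent, with 1 SD per gene in all groups. It held no outlying arrays and far fewer changed genes than were called under smoke, so these rates may not carry over to the data. Other settings tried were array weights, an intensity trend, a pseudocount of 1, median centring, quantile normalization, averaging of probe sets, removal of the dimmest genes, fits to the compared groups alone, 2 covariates, and arrays left out singly or together. Array correlations lay between 0.962 and 0.997, and no scan date was used.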

Additional observations from a re-analysis of the deposited data

Results flagged for a closer look

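Sham groups, of 7 arrays each, were checked for a single array far from the rest by Dixon's test, which chance flags in about 1 in 20 groups. Over 138 checks, 34 of them on probe sets of the 9 genes, 17 gave such an array. HCR sham 0432 was the array in 12 of them. There Soat1 was at 26.9 on probe set 1369002_at, where the rest of its group had 139 to 180, and at 187 on 1374976_a_at, against 276 to 358. Lpl was at 1810, against 2399 to 2712. Cd36 was at 364 (931 to 1169), Lipe at 212 (326 to 448), Lpcat3 at 203 (349 to 424), Nr1h2 at 272 (403 to 480), Rxra at 22.8 (42.3 to 56.7) and Sel1l at 123 (185 to 207), all low. Ppard was at 134 (78.6 to 95.4), Rxrb at 105 (75.9 to 82.5) and Slc27a3 at 39.8 (22.0 to 28.3), all high. The array's Actb 3′ minus 5′ difference of 2.06 was the highest of all. The part of RNA quality in these values was not tested.

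The other arrays that stood apart were HCR sham 0438 for Lmf2 (337, against 296 to 311) and Mgll (153, against 346 to 525), HCR sham 0439 for Npc2 (4147, against 4965 to 5531), LCR sham 0441 for Lpcat3 (254, against 309 to 355) and LCR sham 0443 for Srebf1 (485, against 371 to 414).

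Limma's interaction, the LCR smoke difference less the HCR one, passed for 6 genes of the lists, where 1.87% of all genes passed. By list, 1 of 10 receptors and cofactors passed as positive and 1 as negative. As positive passed 2 of 15 cholesterol transport, 1 of 23 lipid droplet and 1 of 11 lipoprotein uptake genes. Of the 12 further liver X receptor targets, 10 scavenger receptors and transporters and 8 other fatty acid binding proteins, 0 passed. The interaction was 0.51 for Pnpla2, the adipose triglyceride lipase (adjusted p = 0.017), 0.35 for Lrpap1, a chaperone of lipoprotein receptors (0.023), 0.29 for Npc2, a carrier of lysosomal cholesterol (0.032), 0.33 for Stard4, a cytosolic sterol carrier (0.042), 0.48 for Pparg (0.043) and -0.46 for Rxrg (0.046). Pnpla2 was at 757 ± 82 in LCR smoke, against 722 ± 86 in LCR sham, and at 790 ± 42 in HCR smoke, against 1096 ± 234 in HCR sham. Pnpla2 passed in all 38 fits without 1 array. Lrpap1 missed the threshold without HCR sham 0434 (0.32, adjusted p = 0.0579), and Npc2 without any 1 of HCR sham 0434, 0435 or 0436 or LCR sham 0441, 0442 or 0445 (adjusted p up to 0.0635). Stard4, Pparg and Rxrg missed it in 18, 22 and 21 of the 38 fits, with adjusted p up to 0.0760, 0.0866 and 0.0997 and values of 0.29 to 0.35, 0.43 to 0.52 and -0.53 to -0.39.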

How the results depend on the processing

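Of the 52 settings, 38 left out only 1 array and so stayed close to the main fit, which raises the agreement. Over all 52, 2234 of 2331 recomputed differences of the 9 genes kept their direction and their side of the threshold, as did 5322 of 5689 of the further list genes, and 1 called value changed sign. Cyp46a1 in HCR, at 0.25 as reported, was -0.021 with the interquartile range as a covariate. That covariate ended 2 of 6 calls of the 9 genes under smoke in HCR and 1 of 7 in LCR, and 20 of 37 and 9 of 40 calls of the list genes, and left 3024 genes called in HCR. The range averaged lower under smoke in both lines, so it cannot be fully told apart from exposure. The cause of the lost calls was not tested. No paired analysis was possible because the groups share no replicate numbers.

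Of the 9 genes, those called between lines under sham numbered 2 with median-centred arrays, array weights or the interquartile range, 3 with the Gapdh covariate or without HCR sham 0432 and 0433, and 0 with the mean of probe sets or only the groups compared. Under smoke they numbered 0 with the interquartile range, without the 6 arrays high in muscle or fat markers, or without 4 of these, the HCR smoke arrays. In the interaction they numbered 1 with median-centred arrays, the low filter or the Gapdh covariate, and 3 with array weights or without HCR sham 0432 and 0433.

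Of all genes, those called under sham numbered 816 with median-centred arrays, 233 with only the groups compared, 946 with array weights, 830 with the interquartile range and 846 without HCR sham 0432 and 0433. Under smoke they numbered 2860 with array weights, 366 with the interquartile range, 487 without the 6 arrays and 449 without the 4. In the interaction they numbered 552 with median-centred arrays, 1537 with array weights, 562 with the Gapdh covariate, 58 without the 6 arrays, 107 without the 4 and 686 without HCR sham 0432 and 0433.

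With each array left out in turn, 5 to 8 of the 9 genes were called under smoke in LCR, 4 to 6 in HCR, 0 to 3 between lines under sham, 2 to 2 under smoke and 0 to 3 in the interaction. The counts of all genes were 6605 to 7367, 6262 to 6985, 314 to 830, 599 to 1246 and 81 to 768. The settings without HCR sham 0432 and 0433, and without the 4 HCR smoke arrays, were chosen after seeing the data.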
